A study of Mus musculus with 22 samples.

Results

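The genes described here are 9 of the tendon and matrix programme of the embryonic limb: the tendon regulators Scx and Mkx, the tenocyte membrane protein gene Tnmd, the thrombospondin genes Thbs1, Thbs2, Thbs3 and Thbs4, and the fibril-associated collagen genes Col12a1 and Col14a1. They were found on the array by gene name, or by a RefSeq accession of the same gene, which gave 14 of the 41174 non-control probes. All 9 genes passed the filter on low signal and were tested among 18630 genes and unnamed probes. The study compared forelimbs of 129 mouse embryos aged 13.5 days, 9 samples of wild type and 13 of a Chsy-1 knockout. Chsy1 encodes a chondroitin sulfate synthase, an enzyme that lengthens the chondroitin sulfate chains on proteoglycan core proteins. Each sample's RNA, in Cy5, shared 1 array with a universal mouse reference in Cy3, and no dyes were swapped. Every level below is therefore a log2 ratio of forelimb to reference, and levels of different probes cannot be ordered against each other. Which part of Chsy1 was altered is not given in the labels, nor whether samples are single embryos or pools, and p-values therefore reflect the spread among these samples alone.

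Tendons of the limb form from mesenchymal progenitors that express Scleraxis (Scx), a basic helix-loop-helix transcription factor that binds E-boxes, under the influence of TGF-beta and FGF signals. The homeobox factor Mohawk (Mkx) acts later in collagen fibril maturation, and tenomodulin (Tnmd) is a membrane protein of differentiated tenocytes. Thrombospondins are secreted, calcium-binding matrix glycoproteins: Thbs1 and Thbs2 are trimers with type 1 repeats and restrain blood vessel growth, while Thbs3 and Thbs4 are pentamers related to cartilage oligomeric matrix protein. Collagens XII and XIV lie on the surface of collagen I fibrils in dense connective tissue and can themselves carry chondroitin sulfate chains.

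Because Scx binds the E-box, written CANNTG, the promoters of the members with a RefSeq promoter entry were searched for it on both strands, CANNTG being its own reverse complement. An entry was used for 4 of the 9 members, and Mkx was left out of this search. Each sequence covers the 250 bases before the gene's start in GRCm38.p6, is written 5' to 3' on the gene's strand, and has E-boxes in capitals. The windows are chrX:133850758-133851007 on the plus strand for Tnmd, chr17:14694263-14694512 on the minus strand for Thbs2, chr3:89214930-89215179 on the plus strand for Thbs3 and chr13:92794819-92795068 on the minus strand for Thbs4. All 4 windows are shown, whatever the members' values.
Tnmd: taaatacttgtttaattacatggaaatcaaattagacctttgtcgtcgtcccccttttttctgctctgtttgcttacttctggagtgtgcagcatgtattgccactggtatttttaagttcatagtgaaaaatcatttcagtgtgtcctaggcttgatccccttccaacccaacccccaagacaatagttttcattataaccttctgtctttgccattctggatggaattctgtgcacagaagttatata
Thbs4: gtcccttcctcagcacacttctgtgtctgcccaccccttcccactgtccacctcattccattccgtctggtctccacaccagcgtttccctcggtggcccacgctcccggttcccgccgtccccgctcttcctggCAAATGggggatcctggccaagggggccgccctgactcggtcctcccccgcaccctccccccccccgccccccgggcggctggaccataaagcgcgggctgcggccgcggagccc
Thbs2: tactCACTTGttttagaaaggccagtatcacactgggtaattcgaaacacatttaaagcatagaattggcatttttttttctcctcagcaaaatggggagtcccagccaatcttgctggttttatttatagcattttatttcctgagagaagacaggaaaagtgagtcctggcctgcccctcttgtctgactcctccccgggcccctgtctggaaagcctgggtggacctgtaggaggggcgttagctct
Thbs3: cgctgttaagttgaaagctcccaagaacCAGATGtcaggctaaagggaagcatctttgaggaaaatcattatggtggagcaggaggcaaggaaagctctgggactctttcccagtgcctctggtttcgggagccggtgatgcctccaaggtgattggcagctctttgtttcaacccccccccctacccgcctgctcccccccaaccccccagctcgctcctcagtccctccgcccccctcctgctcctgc

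The Tnmd window held 0 E-boxes and each thrombospondin window held 1. Counting the base before the gene's start as -1, the E-box began at -115 in Thbs4 (CAAATG), at -246 in Thbs2 (CACTTG) and at -222 in Thbs3 (CAGATG). Of the 32817 promoter windows in the table, 66.2% held at least 1 CANNTG and 33.8% held none, with a median of 1. The members' counts therefore lie at the common values, and the Tnmd window only lacks these letters.

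Chsy1 itself checked the labels. Its log2 ratio was 1.73 ± 0.28 (SD, n = 9) in wild type and between -5.12 and -4.05 in 12 knockout arrays. The array labelled knockout 1 stood at 0.15, between the groups, and so went against its label. Each result below includes it, and its values without that array are given where they matter. Per array, 27214 to 30599 of 43379 non-control spots had a Cy5 signal well above background. In the limb check, Tbx5, the forelimb T-box factor, stood at 2.20 ± 0.56 (SD, n = 9) in wild type, with Cy5 signals of 350.9 to 1153 units over all arrays. The hindlimb factors Pitx1 and Tbx4 were also well above background on all 22 arrays, at 5.64 ± 0.27 and 0.61 ± 0.27 in wild type, with Cy5 signals of 27170 to 85995 and 89.2 to 216.8 units.

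None of the 9 genes passed the test between the genotypes. With limma and Benjamini-Hochberg adjustment over all tested genes, 0 of 9 members had an adjusted p under 0.05, beside 4 of 18630 genes in all (0.0215%). At an unadjusted p under 0.05, with each gene read by its brightest probe, Thbs2 was lower in knockout, beside 3.95% of all genes. Scx was higher, beside 1.38%. Across the members 6 of 9 differences were below 0 with a median of -0.18, against 9943 of 18630 (53.4%) and a median of -0.01 over all genes. Over the omissions of 1 array the members' median ran from -0.23 without wild-type 1 to -0.06 without wild-type 5. It was -0.09 without wild-type 6, and -0.09 relative to all genes with arrays centred on their median. Without wild-type 1, the array labelled knockout 1 and knockout 12, a set chosen after seeing the data, 0 members passed and 1 gene passed in all. In whole forelimbs, fewer cells of a type and less RNA per cell cannot be told apart, for any value given here.

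**Figure D1:**
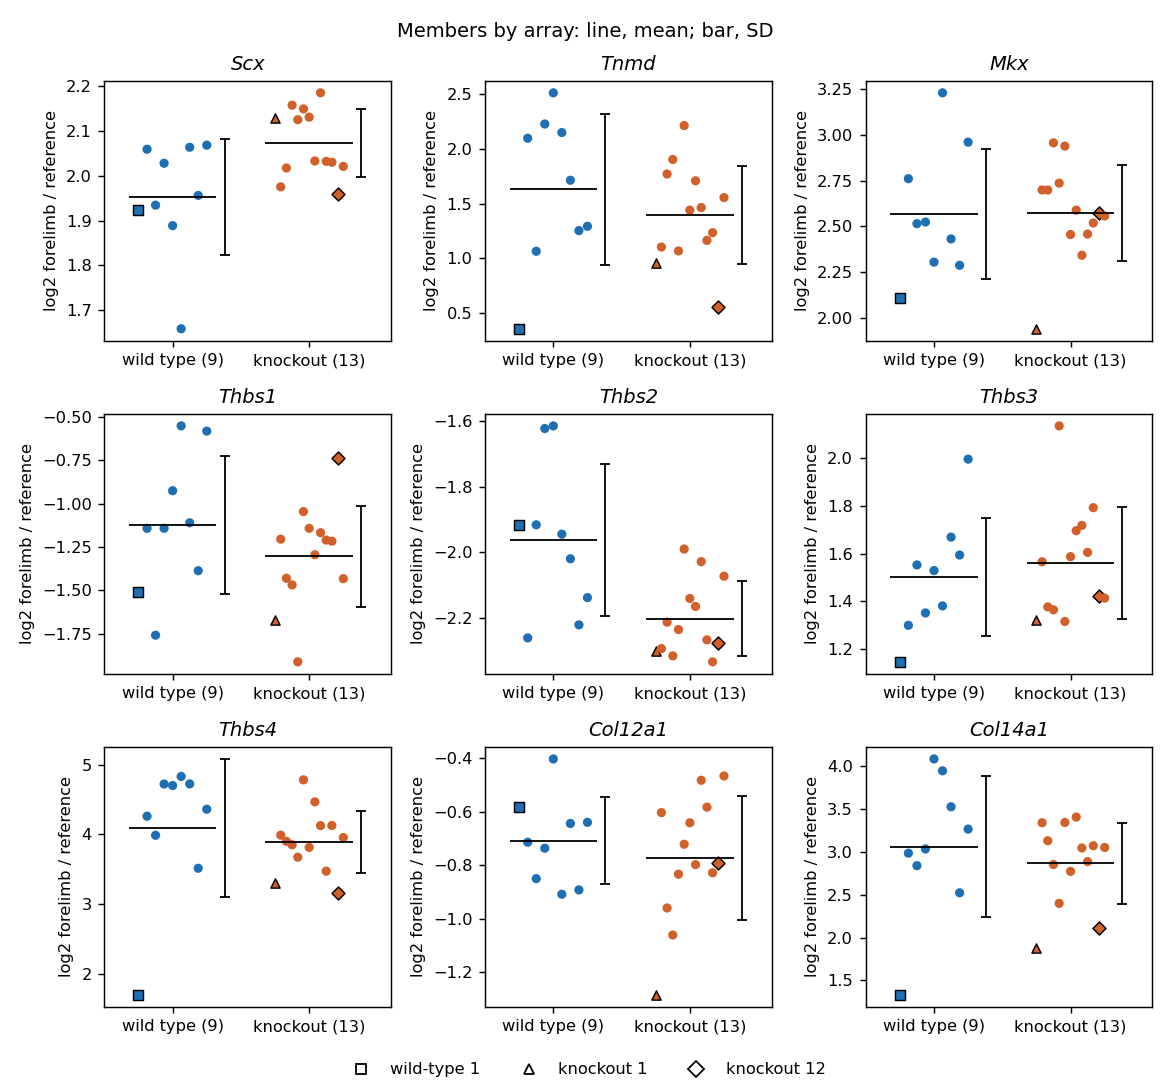
Log2 ratio of forelimb to reference (vertical axis) for each member in 9 wild-type and 13 knockout arrays, with the mean as a line and the SD as a bar; the square, triangle and diamond mark wild-type 1, the array labelled knockout 1 and knockout 12. The genotypes overlap for every member, Scx and Thbs2 show the least overlap, and wild-type 1 lies at the bottom for Tnmd, Thbs4 and Col14a1.

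Scx, the marker of tendon progenitors, had a bright signal, from 12279 to 30955 Cy5 units. Its log2 ratio ran from 1.66 through a median of 1.96 to 2.07 in wild type, and from 1.96 through 2.03 to 2.19 in knockout. All 13 knockout arrays lay above the wild-type median, while the groups still overlapped; the same held for 0.338% of all genes. The means were 1.95 ± 0.13 (SD, n = 9) and 2.07 ± 0.08 (n = 13). The difference was 0.12 (SE 0.05, 95% interval 0.02 to 0.22, limma p = 0.0246, adjusted p = 0.918). With limma's trend and robust variance on the same arrays the interval was -0.02 to 0.26 (p = 0.0828). Wild-type 6 was the lowest array, at 1.66 against 1.89 for the next, and without it the difference was 0.08 with an unadjusted limma p of 0.0693. The difference was 0.01 within position 2 of the slides, the 1 position that held both genotypes, and -0.03 there without the array labelled knockout 1. The Scx probe lies at chr15:76286533-76286592 of mm8, per the file headers. In RefSeq's GRCm38.p6 annotation the whole Scx gene lies within the span of Bop1, a ribosome biogenesis gene. Bop1's own probe gave a difference of -0.04.

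Mkx, the other transcription factor, ran from 2.11 through 2.52 to 3.23 in wild type and from 1.94 through 2.57 to 2.96 in knockout. The ranges overlapped almost fully, and 4 of 13 knockout arrays were below the wild-type median. The means were 2.57 ± 0.36 (n = 9) and 2.57 ± 0.26 (n = 13), a difference of 0.0049 (95% interval -0.25 to 0.26, limma adjusted p = 0.998). The sign of this difference turned under 19 of 41 other settings, which are not all independent.

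Tnmd, the marker of maturing tenocytes, was dim, at 138 to 572 Cy5 units, and its reference signal was well above background on 0 of 22 arrays. Its probe lies at chrX:129209298-129209357 of mm8. The log2 ratio ran from 0.36 through 1.71 to 2.51 in wild type and from 0.55 through 1.44 to 2.21 in knockout. Wild-type 1 and knockout 12 were the low ends, and 10 of 13 knockout arrays were under the wild-type median. The difference was -0.23 (SE 0.22, 95% interval -0.70 to 0.23, limma adjusted p = 0.938), and without wild-type 1 it was -0.39 (-0.81 to 0.02). Without wild-type 5 it was -0.12.

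Thbs2, which binds matrix metalloproteinases and shapes collagen fibrils, had the difference with the smallest p among the members. Its probe aligns to chr17:14404116-14405379 of mm8, a span longer than the probe, per the file headers. The log2 ratio ran from -2.26 through -1.94 to -1.61 in wild type and from -2.34 through -2.24 to -1.99 in knockout. All 13 knockout arrays were below the wild-type median, as for 1.12% of all genes, but 4 wild-type arrays reached into the knockout range. The means were -1.96 ± 0.23 (n = 9) and -2.20 ± 0.11 (n = 13). The difference was -0.24 (SE 0.07, 95% interval -0.40 to -0.09, limma p = 0.00353, adjusted p = 0.909). On the linear scale the knockout level was 84.6% of wild type, with a 95% interval from 76.0% to 94.1%. The difference was below 0 within all 6 slides, from -0.62 to -0.04, though on each slide the genotypes also differed in position. It was -0.14 within position 2 and -0.13 there without the array labelled knockout 1. Over the omissions of 1 array it stayed between -0.28 and -0.20, and its smallest limma adjusted p was 0.259, without wild-type 8.

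Thbs1, an activator of latent TGF-beta, had 3 probes. The brightest, at chr2:117817480-117817539 of mm8, ran from -1.76 through -1.14 to -0.55 in wild type and from -1.91 through -1.22 to -0.74 in knockout. The ranges overlapped, and 11 of 13 knockout arrays were below the wild-type median. Its difference was -0.18 (SE 0.14, 95% interval -0.47 to 0.11, limma adjusted p = 0.931). It was -0.11 without wild-type 6 or without wild-type 9. Within position 2 it was -0.41, and -0.29 there without the array labelled knockout 1. The dimmer probe at chr2:117814035-117814094 gave -0.37 ± 0.15 in wild type (n = 9) and -0.50 ± 0.15 in knockout (n = 13), a difference of -0.14. Its 95% interval was -0.28 to -0.0013, with an unadjusted limma p of 0.048 in a fit over all tested probes. The other, at chr2:117812417-117812597, gave -0.30 ± 0.19 and -0.31 ± 0.10, a difference of -0.02 (95% interval -0.15 to 0.12). Between arrays the brightest probe did not follow every other probe of its gene. After centring each genotype on its mean, it had r = 0.498 and rho = 0.503 with the first of these (permutation p adjusted over 5 pairs of probes of 1 gene, 0.0228 and 0.023) and r = 0.0393 and rho = 0.0299 with the second (0.861 and 0.896). The 2 dimmer probes had r = 0.715 and rho = 0.729 with each other (adjusted permutation p = 0.000525 and 0.00065).

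Thbs3, a pentameric thrombospondin of the developing skeleton, ran from 1.15 through 1.53 to 2.00 in wild type and from 1.32 through 1.57 to 2.14 in knockout. The groups overlapped almost fully, with 6 of 13 knockout arrays below the wild-type median. The difference was 0.06 (SE 0.10, 95% interval -0.15 to 0.27, limma adjusted p = 0.974). It ranged from 0.01 without knockout 5 to 0.12 without wild-type 9. Within position 2 it was -0.33, and -0.28 there without the array labelled knockout 1. Its probe lies at chr3:89312527-89312586 of mm8. In GRCm38.p6 the gene overlaps an unnamed long non-coding RNA gene.

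Thbs4, a pentameric thrombospondin enriched in tendon and muscle attachments, showed the widest spread of the members. Its brighter probe, at chr13:93852363-93852422 of mm8, ran from 1.69 through 4.36 to 4.83 in wild type and from 3.16 through 3.90 to 4.78 in knockout. Wild-type 1 was far below every other array, and 11 of 13 knockout arrays were under the wild-type median. The means were 4.09 ± 0.99 (n = 9) and 3.89 ± 0.44 (n = 13), a difference of -0.19 (SE 0.29, 95% interval -0.79 to 0.40, limma adjusted p = 0.971). Without wild-type 1 the difference was -0.49 (95% interval -0.88 to -0.11), with a limma p of 0.0141 and an adjusted p of 0.862. It was smaller without other wild-type arrays, at -0.10 without wild-type 6 and -0.12 without wild-type 4, 5 or 7. Within position 2 it was -0.47, and -0.26 there without the array labelled knockout 1. Without wild-type 1, the array labelled knockout 1 and knockout 12 it was -0.37 (-0.73 to -0.02, adjusted p = 0.997). The reference RNA gave a signal well above background for this probe on 3 of 22 arrays, so the ratio is taken over a denominator near background. The second Thbs4 probe, at chr13:93855918-93855977, stood at 2.36 ± 0.69 in wild type (n = 9) and 2.12 ± 0.43 in knockout (n = 13), a difference of -0.24.

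Col12a1, the collagen XII gene, ran from -0.91 through -0.71 to -0.40 in wild type and from -1.28 through -0.79 to -0.47 in knockout. The ranges overlapped, and the array labelled knockout 1 was the lowest of all. The difference was -0.07 (SE 0.09, 95% interval -0.25 to 0.12, limma adjusted p = 0.964), and -0.02 without that array. This probe lies at chr9:79385147-79385206 of mm8, and the other, dimmer probe at chr9:79390205-79390264 gave a difference of 0.03, opposite in sign.

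Col14a1, the collagen XIV gene, ran from 1.33 through 3.04 to 4.09 in wild type and from 1.88 through 3.05 to 3.41 in knockout. The medians were nearly the same, and the low ends were wild-type 1 and the array labelled knockout 1. The means were 3.06 ± 0.82 (n = 9) and 2.87 ± 0.47 (n = 13), a difference of -0.19 (SE 0.26, 95% interval -0.72 to 0.34, limma adjusted p = 0.964). It was -0.41 (95% interval -0.84 to 0.02) without wild-type 1, -0.11 without the array labelled knockout 1 and -0.06 without wild-type 5. The probe lies at chr15:55350660-55350719 of mm8. A second Col14a1 probe, at chr15:55174960-55175019, was well above background on 0 of 22 arrays and stayed untested. In GRCm38.p6 the gene overlaps the non-coding gene Gm52209 and the pseudogene Gm18787.

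**Figure D2:**
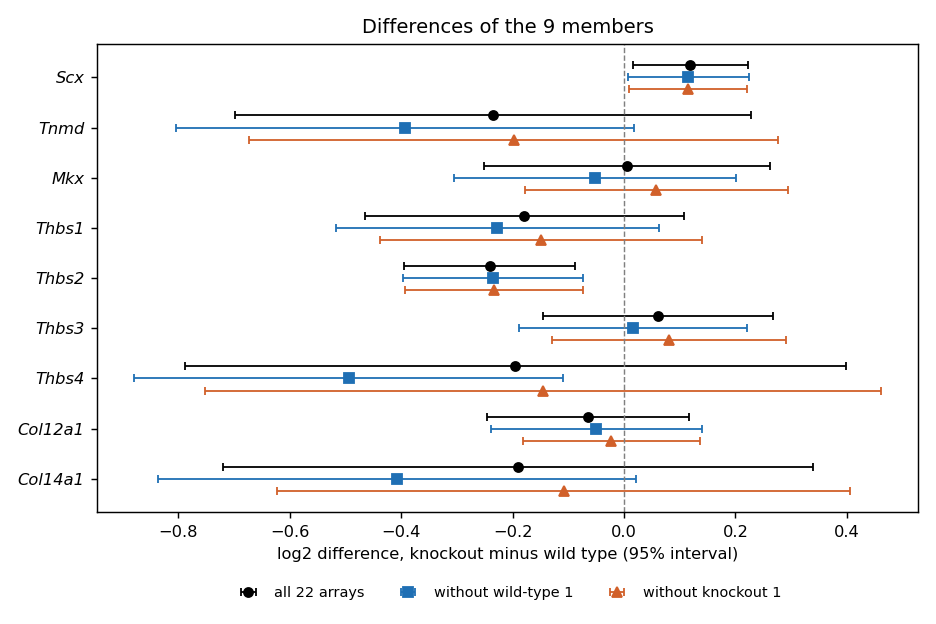
Log2 difference, knockout minus wild type (horizontal axis), with its 95% interval for each member, from limma over all 22 arrays, without wild-type 1 and without the array labelled knockout 1. Over all arrays the intervals of Scx and Thbs2 lie on 1 side of 0, and without wild-type 1 that of Thbs4 does as well; none of these passed after adjustment.

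Each of the 6 slides held both genotypes, but slides 4, 5 and 6 held 1 wild-type array each, so their differences rest on that array. Within slides, the Scx difference lay between 0.05 and 0.44 and was above 0 on all 6; the 0.44 rests on wild-type 6, the lowest array, and the next value was 0.12. Thbs1, Col12a1 and Col14a1 were each below 0 on 5 of 6 slides, and Tnmd and Thbs4 on 4 of 6. Tnmd ranged from -1.11 to 0.50, Thbs4 from -1.03 to 0.45 and Col14a1 from -0.86 to 0.44, so these 3 changed sign between slides. Mkx was below 0 on 2 of 6 slides and Thbs3 on 1. Position on the slide did not balance the genotypes, with 6 wild-type arrays in position 1, 3 arrays of each genotype in position 2, and 6 and 4 knockout arrays in positions 3 and 4. On every slide the wild-type arrays held lower positions than the knockout arrays. Within a slide, genotype and position therefore cannot be told apart.

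**Figure D3:**
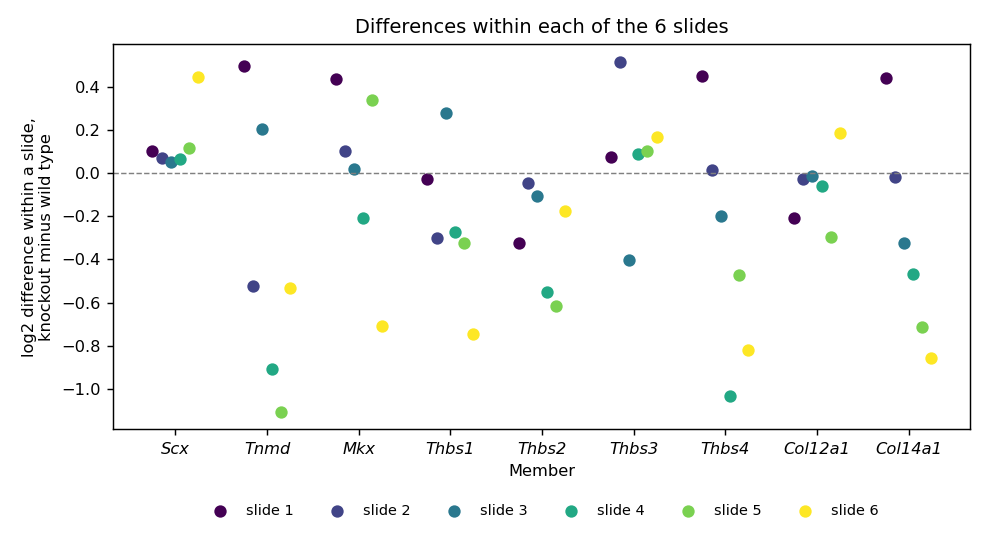
Log2 difference, knockout minus wild type, within each of the 6 slides (vertical axis) for each member (horizontal axis), 1 point per slide. All 6 Thbs2 points lie below 0 and all 6 Scx points above 0, while Tnmd, Thbs4 and Col14a1 spread on both sides of 0. On every slide the wild-type arrays held lower positions than the knockout arrays.

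The members differed in how much they varied among arrays of 1 genotype. Thbs4 had a pooled SD of 0.72 log2 units, larger than 99.5% of all genes tested. Col14a1 at 0.64 exceeded 99.3% and Tnmd at 0.56 exceeded 98.7%. The reference signal was well above background on 3 of 22 arrays for Thbs4, 0 for Tnmd and 22 for Col14a1. In Cy3 units it was 57.0 to 102.5 for Thbs4, 54.0 to 64.5 for Tnmd and 70.6 to 101.3 for Col14a1, against 1998.5 to 2819.1 for Scx. The Thbs4 SD was 0.99 in wild type (n = 9), which includes wild-type 1, and 0.44 in knockout (n = 13). The part of the reference signal in these spreads was not tested. Scx was at the other end, with an SD of 0.10 that exceeded only 6.87% of genes, although all of these genes are used as tendon markers. Thbs2 at 0.17 and Col12a1 at 0.21 were near the middle, at 41.1% and 56.7%, while Thbs3 at 0.24, Mkx at 0.30 and Thbs1 at 0.34 exceeded 67.9%, 82.8% and 88.1%.

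The log2 ratios of the 3 variable genes moved together. Among the 36 pairs of members, correlated over 22 arrays after centring each genotype on its mean, 3 pairs had adjusted p-values under 0.05 for both Pearson's r and Spearman's rho. Thbs4 and Col14a1 had r = 0.898 and rho = 0.835, each with a permutation p of 1e-05, the smallest that 100000 permutations can give, and adjusted values of 0.00012 and 0.00036. Leaving out knockout 6 and wild-type 1, the arrays farthest from the Thbs4 median, r was 0.844. Within the genotypes r was 0.928 in wild type and 0.841 in knockout, and with slide means removed as well it was 0.934.

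Tnmd and Thbs4 had r = 0.822 and rho = 0.771, with adjusted permutation p-values of 0.00012 and 0.00108, and r = 0.72 without knockout 12 and wild-type 1. Tnmd and Col14a1 had r = 0.782 and rho = 0.688, with adjusted permutation p-values of 0.00012 and 0.00576, and r = 0.616 without the same arrays. With slide means removed r was 0.836 and 0.793, and single slides held too few arrays for an r of their own. The points of each pair share their array, its RNA and its scan.

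For Scx no correlation with these genes passed. Its r with Thbs4 was 0.0516 and its rho 0.164, with permutation p-values of 0.812 and 0.464 and adjusted values of 0.859 and 0.701. Its r with Tnmd was 0.067 and with Col14a1 -0.198. Wild-type 6 and wild-type 9 lay farthest from the Scx median, and without them r was 0.300 with Thbs4, 0.361 with Tnmd and 0.0149 with Col14a1. With slide means removed the values were 0.282, 0.287 and 0.101, and within knockout r with Tnmd was 0.433. Over all 36 pairs the median rho was 0.162 and 27 were positive. Both Thbs4 probes followed each other, with r = 0.857 and rho = 0.678 (adjusted permutation p = 0.0001 and 0.00137), and r = 0.576 without knockout 12 and wild-type 1.

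**Figure D4:**
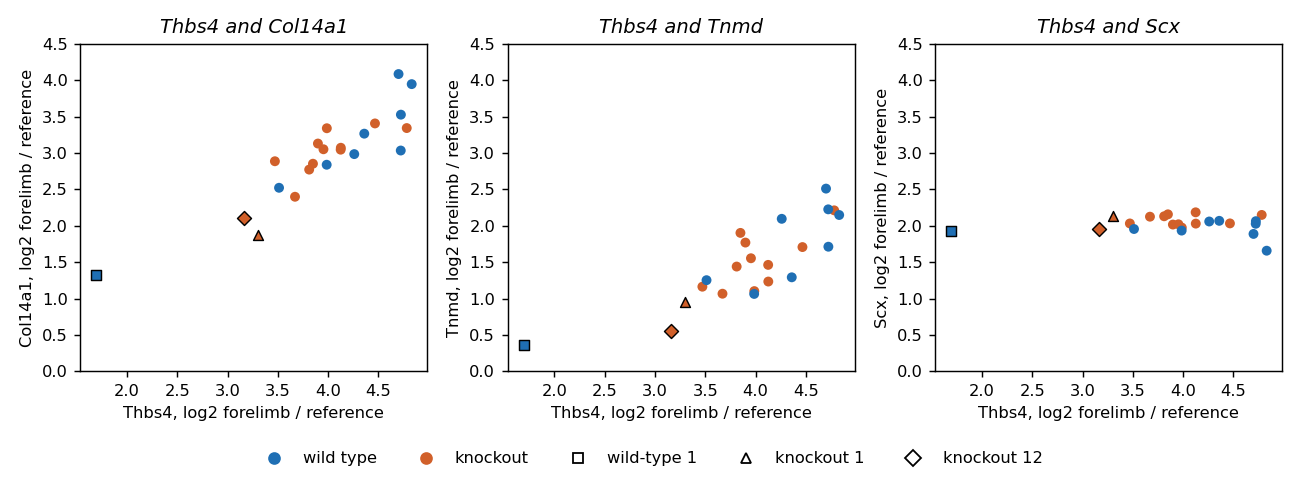
Log2 ratios of Col14a1, Tnmd and Scx (vertical axes) against that of Thbs4 (horizontal axes), 1 point per array, coloured by genotype, with wild-type 1, the array labelled knockout 1 and knockout 12 marked. Col14a1 and Tnmd are higher where Thbs4 is higher, with r of 0.898 and 0.822, whereas Scx stays near 2 with r = 0.0516.

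The arrays with low ratios in these 3 genes also had low mean ratios in many, but not all, marker lists of limb tissues. Of 11 lists, wild-type 1 lay below the 19 arrays other than itself, knockout 12 and the array labelled knockout 1 in 9, knockout 12 in 8 and the array labelled knockout 1 in 2. Wild-type 1 was at 0.36 for Tnmd, 1.69 for Thbs4 and 1.33 for Col14a1, and knockout 12 was at 0.55, 3.16 and 2.11. The raw Cy5 signals, not adjusted for array brightness, were 228, 1180.5 and 904 units in wild-type 1. In knockout 12 they were 239, 2753 and 1238. Wild-type 3 had lower signals, at 138, 1009 and 568, but higher ratios, at 1.06, 3.99 and 2.84. The part of the reference signal and of normalisation in the low ratios was not tested. The mean of 10 of 10 cartilage markers, relative to all arrays, was -1.05 log2 units in wild-type 1 and -0.62 in knockout 12, against -0.25 to 0.63 in those 19 arrays. For 6 of 6 endothelial markers the values were -1.17 and -0.90 against -0.13 to 0.34. For 12 of 13 skeletal muscle markers they were -0.39 and -0.39 against -0.22 to 0.39, and for 6 of 6 forelimb mesenchyme markers -0.78 and -0.56 against -0.30 to 0.44. The osteoblast means, -0.15 and -0.05, lay within the -0.25 to 0.36 of the other arrays, as did wild-type 1 for fibroblast markers (-0.18) and knockout 12 for erythroid (-0.37) and Schwann cell markers (-0.12). Myf5, a muscle factor, was the 1 marker of the cartilage, endothelial, muscle and mesenchyme lists below the filter on signal. Between the genotypes the cartilage list had a median difference of -0.23, with 8 of 10 genes below 0, and the muscle list -0.15, with 11 of 12 below 0. The endothelial list stood at -0.03, with 5 of 6 below 0, and the forelimb mesenchyme list at 0.18 and the Schwann cell list at 0.12, with 2 of 6 and 0 of 5 below 0. With arrays centred on their median, 6 of 10 cartilage genes were below the shift of all genes, with a median of -0.27, and 11 of 12 muscle genes were. Without background correction and with the scanner's log ratio, 10 of 10 cartilage genes were below 0, and in the Cy5 channel alone 9 of 10. In these 5 lists 0 genes passed the limma adjustment. At an unadjusted p under 0.05 1 muscle gene was lower and 1 mesenchyme gene higher, beside 3.95% and 1.38% of all genes. The fibroblast list stood at -0.17 (5 of 8 below 0), osteoblast at -0.05 (5 of 5), surface ectoderm at -0.14 (5 of 6) and erythroid at -0.04 (3 of 5). Hindlimb factors stood at -0.04 (1 of 2) and macrophage at 0.09 (1 of 5). In these lists too 0 passed. At the same unadjusted p, 2 fibroblast genes were lower and 1 higher, and 1 osteoblast, 1 surface ectoderm and 1 hindlimb gene were lower. The part of these markers in the members' values was not tested.

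The array labelled knockout 1 was also low in Tnmd, Thbs4 and Col14a1, at 0.96, 3.30 and 1.88, while its cartilage mean was -0.04, inside the range of the other arrays. It lay below them in surface ectoderm markers, at -0.41 against a lowest value of -0.22, and in macrophage markers, at -0.20 against -0.19. Its mean over the other tendon lineage genes was -0.28 against -0.23, and over the other fibril-associated and tendon collagens -0.32 against -0.22.

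The genes most like each member were taken as the 3 named genes with the highest Spearman rho over the 22 arrays, after centring each genotype, among 16152 genes. For Tnmd these included Ctsk at 0.929, which encodes the protease cathepsin K, and Calca at 0.920, which encodes calcitonin and a related peptide. For Thbs4 they were Unc45b at 0.929, a myosin chaperone gene of striated muscle, Fitm1 at 0.912 and Nrip3 at 0.910. For Col14a1 they were Enpep at 0.889, which encodes aminopeptidase A, Tmeff2 at 0.886 and Abi3bp at 0.872. About 1 in 10 genes had a rho over 0.5 with these members: 9.00% for Tnmd, 9.71% for Thbs4 and 10.7% for Col14a1.

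Thbs2 had Ankrd1 at 0.849, which encodes a muscle ankyrin repeat protein, Anxa5 at 0.834 and Clu at 0.827 as nearest genes. Those of Thbs1 were Zeb1 at 0.895, a zinc finger repressor of epithelial genes, Hipk3 at 0.871 and Antxr2 at 0.866. Col12a1 had Pcdh19 at 0.833, Fbn1 at 0.818, which encodes the microfibril protein fibrillin-1, and Bmpr2 at 0.805. For Thbs3 they were D10Bwg1070e at 0.922, Tle2 at 0.918 and Lrrc29 at 0.914, and for Mkx Pkp4 at 0.883, Rhbdl3 at 0.881 and Wdfy2 at 0.868. Scx had the weakest partners, Zdhhc12 at 0.704, LOC434156 at 0.692 and Pex19 at 0.670, and 0.873% of genes had a rho over 0.5 with it. The arrays share their preparation, so these likenesses are descriptions without a test.

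Genes around the members gave 0 passes as well. Of 16 other tendon lineage genes, 2 were lower and 1 was higher at an unadjusted p under 0.05, beside 3.95% and 1.38% of all genes. After limma adjustment 0 of these 16 passed, and their median difference was -0.02. Those with the smallest p were Tnc, the tenascin C matrix gene, at -0.24 (95% interval -0.45 to -0.04), Egr1, a zinc finger factor of tendon cells, at -0.23 (-0.45 to -0.0046), and Pdgfra, a PDGF receptor of mesenchyme, at 0.21 (0.0027 to 0.43). The limma adjusted p was 0.918 for each. Of the TGF-beta and FGF pathway genes that act on tendon progenitors 18 of 19 were tested, 0 passed, 0 were lower and 1 was higher at an unadjusted p under 0.05, and the median was 0.02. The type I receptor gene Tgfbr1 stood at 1.89 ± 0.10 in wild type (n = 9) and 2.03 ± 0.11 in knockout (n = 13), a difference of 0.14 (0.04 to 0.25). The feedback inhibitor genes Smad7 and Spry1 had differences of 0.21 (-0.0078 to 0.43) and 0.17 (-0.01 to 0.34), and all 3 had a limma adjusted p of 0.918.

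Of the thrombospondin receptors and binding partners 22 of 23 were tested and 0 passed. At an unadjusted p under 0.05 1 was lower and 1 higher, beside 3.95% and 1.38% of all genes. In this list 19 of 22 differences were below 0, with a median of -0.09, beside 53.4% and -0.01 over all genes; with arrays centred on their median, 13 of 22 were below the shift of all genes. Notch3, a receptor of vascular mural cells that binds Thbs2, was at 1.44 ± 0.16 in wild type (n = 9) and 1.69 ± 0.17 in knockout (n = 13), a difference of 0.25 (0.11 to 0.40, limma adjusted p = 0.878), opposite in sign to that of Thbs2. The heparan sulfate proteoglycan gene Sdc4 had a difference of -0.20 (-0.40 to -0.0083) and the receptor chaperone gene Lrpap1 one of -0.14 (-0.28 to 0.0055), both at a limma adjusted p of 0.918. Of the other fibril-associated and tendon collagens 15 of 16 were tested, and 0 passed with or without adjustment by limma. There 13 of 15 differences were below 0, with a median of -0.09, or 9 of 15 with arrays centred on their median. The smallest p-values belonged to Col6a2 at -0.11 (-0.28 to 0.05), Col20a1 at -0.09 (-0.24 to 0.05) and Col6a3 at -0.15 (-0.42 to 0.12), with limma adjusted p-values of 0.931, 0.931 and 0.938. Fgf4, Hspg2 and Col21a1 were not analysed here.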

How the data were processed

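Each array's deposited spot and background intensities are raw values from Agilent Feature Extraction, version 9.5.3.1 per the file headers and 9.5 per the submitters' processing notes. The deposited log10 ratio of processed Cy5 over Cy3 is the same as the deposited value table, with a largest difference of 0. The flags are 0 or 1 in the deposited files. Mean intensities were corrected with normexp (offset 50), normalised by loess within arrays (control and outlier spots at weight 0), and averaged per probe. Control and outlier spots were left out. Probes with a Cy5 signal well above background on 9 or more arrays were tested, and a gene was represented by its brightest probe. Names came from the files and, for older names, a GRCm38.p6 table. Differences are knockout minus wild type, from lmFit and eBayes in limma 3.58.1 (R 4.3.3) on 22 arrays without covariates, with Benjamini-Hochberg adjustment over 18630 genes and unnamed probes. Code was tested on simulated data. Correlations used 100000 two-sided permutations. Named genes were the members, Chsy1, the genes of each list with the smallest p, up to 3, and the 3 nearest by rho; the limb factors and Bop1 were added after their values were seen. The members and lists were chosen with earlier results of these data known. Alternatives covered background correction, normalisation, the filter, probe averaging, blocks and omitted arrays. Spot brightness over background, and the number of arrays, limit the precision. For Tnmd, 1 of the nearest genes is not reported here.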

Additional observations from a re-analysis of the deposited data

Results flagged for a closer look

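Among the 9 members in the 9 wild-type arrays, 2 had 1 array far from the others by Dixon's test at the 95% level, which chance flags in about 1 of 20 groups. For Scx, wild-type 6 stood at 1.66 while the next array was at 1.89, a gap of 0.562 of the whole range. For Thbs4, wild-type 1 stood at 1.69 while the next was at 3.51, a gap of 0.580 of the range. The causes were not tested. Without these arrays the Scx difference was 0.08 and the Thbs4 difference -0.49.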

How the results depend on the processing

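No member passed under any of the 40 settings that gave an adjusted p, with the smallest, 0.259, for Thbs2. Scx, Tnmd, Thbs1, Thbs2, Thbs4, Col12a1 and Col14a1 kept their sign in all 41 settings, median centring being read relative to all genes, but not their size. The settings are not independent, as 22 were omissions of 1 array. Aquantile scaling between arrays left every value as in the main setting, and the value table repeats the scanner's log ratio. Position as a block gave the same differences as position 2 only. With the scanner's log ratio or the value table Col14a1 was at -0.47 (limma p = 0.0341) and Tnmd at -0.49. In position 2 Col12a1 was at -0.22, Thbs1 at -0.41 and Thbs4 at -0.47. There, without the array labelled knockout 1, a reading outside the 41 settings, these were -0.06, -0.29 and -0.26. Scx, Tnmd and Col14a1 then turned sign, to -0.03, 0.02 and 0.13. Mkx was at 0.14, Thbs2 at -0.13 and Thbs3 at -0.28 in that reading, which rests on 3 wild-type and 2 knockout arrays. Mkx, at 0.0049, turned to -0.036 without background correction, -0.030 with the scanner's log ratio and with the deposited value table, -0.049 in the Cy5 channel alone, -0.11 with position as a block and in position 2 only, -0.0067 with array weights and -0.052 without wild-type 1 and knockout 12, and ran from -0.052 to 0.088 over the omissions of 1 array. Thbs3 turned to -0.33 with position as a block and in position 2 only. The count of 4 genes passing became 1 with the scanner's log ratio, the value table, slide as a block, position as a block, without wild-type 1 and knockout 12, and without these and the array labelled knockout 1. It became 7 with array weights, 2 to 6 over the omissions of 1 array, and 0 by limma in position 2 only, where 437 genes had an unadjusted p under 0.05. Median centring raised the knockout arrays by 0.24 over all genes. It gave 1, or 2332 once the knockout arrays were lowered by that shift, a setting added after seeing the data. The causes were not tested. Same-numbered arrays are not paired by the labels: their correlations ran from -0.313 to 0.494 over 9 pairs, 3 were above 0.1, and 1 of 9 arrays correlated best with its own number. With the replicate number as a block 1 gene passed, with a difference of -0.23 for Thbs2 and 0.15 for Scx. Dim spots limit Tnmd and Thbs4, whose reference signal was near background. The Col14a1 reference signal passed the flag but was low as well, at 70.6 to 101.3 units.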
